A study of Mus musculus with 6 samples.

Results

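The genes described here are 9 collagen genes, those of the fibrillar collagens and of their fibril-associated partners: Col1a1, Col1a2, Col3a1, Col5a1, Col5a2, Col5a3, Col12a1, Col14a1 and Col16a1. They were taken by symbol from 55416 gene IDs in the count table, and all 9 were found and passed the filter on low counts, which left 17083 genes. RNA from whole liver was sequenced in 6 libraries from male mice. The 3 libraries called KO came from Ephb2 flox/flox mice with Pdgfrb-CreERT2, a Cre recombinase that tamoxifen switches on in stellate cells and other mesenchymal cells with an active Pdgfrb promoter. The 3 libraries called WT came from Ephb2 flox/flox mice without Cre. Mice of both genotypes were 8 to 10 weeks old, received tamoxifen for 5 days, and then ate a choline-deficient, amino-acid-defined diet with 45% of calories from fat, 0.1% methionine and 1% cholesterol for 8 weeks. No library carried Cre without the floxed gene, so Cre and the deletion cannot be told apart. The title of the series names scarring of the liver as its subject, and collagen fibrils are the bulk of a scar.

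Fibrillar collagens are secreted as procollagens, each a rope of 3 chains, and after their end pieces are cut off they line up into banded fibrils. Type I, with alpha 1 (Col1a1) and alpha 2 (Col1a2) chains, and type III, a trimer of the Col3a1 chain, make up most of the scar fibrils in liver. Type V, built from the chains of Col5a1, Col5a2 and Col5a3, starts fibrils and limits their width. Types XII (Col12a1), XIV (Col14a1) and XVI (Col16a1) belong to the FACITs, fibril-associated collagens with interrupted triple helices. Those of types XII and XIV sit on the surface of fibrils and join them to other matrix. In injured liver these genes are known as products of activated stellate cells and portal fibroblasts, and whole-liver RNA cannot tell fewer cells of a type from less RNA per cell.

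The class of each gene can be read in its coding sequence, since a collagen helix needs glycine, encoded by GGN, at the first place of every triplet of residues. The longest unbroken run of GGN triplets held 338 triplets in Col1a1 and Col1a2, 344 in Col3a1, 338 in Col5a1, 339 in Col5a2 and 337 in Col5a3. It held 32 triplets in Col12a1 and in Col14a1 and 52 in Col16a1. Col16a1 had 21 separate runs of at least 5 triplets, which covered 61.5% of its codons, while Col12a1 and Col14a1 had 5 runs each, covering 8.12% and 13.8%. The last 8 triplets of the longest run and the 4 codons after it are shown for 2 fibrillar and 2 fibril-associated genes, from the GENCODE M21 transcripts (GRCm38), with the glycine codons of the run in capitals. They show the repeat that the scar collagens share with the FACITs, and where its longest run stops.
Col1a1 (codons 1158 to 1185): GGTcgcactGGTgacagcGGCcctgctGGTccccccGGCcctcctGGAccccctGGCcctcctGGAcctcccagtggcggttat
Col5a1 (codons 1549 to 1576): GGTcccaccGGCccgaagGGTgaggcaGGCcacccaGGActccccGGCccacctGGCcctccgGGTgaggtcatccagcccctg
Col14a1 (codons 1589 to 1616): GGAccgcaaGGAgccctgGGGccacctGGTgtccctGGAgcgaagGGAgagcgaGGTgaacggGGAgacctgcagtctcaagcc
Col12a1 (codons 2877 to 2904): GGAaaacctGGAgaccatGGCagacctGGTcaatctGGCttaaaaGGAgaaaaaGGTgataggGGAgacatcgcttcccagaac

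On GRCm38, Col1a1 (ENSMUSG00000001506) lies on chromosome 11 at 94936224 to 94953042, plus strand. Col1a2 (ENSMUSG00000029661) lies on chromosome 6 at 4504814 to 4541544, plus strand, and Col16a1 (ENSMUSG00000040690) on chromosome 4 at 130047840 to 130099283, plus strand. Col3a1 (ENSMUSG00000026043) and Col5a2 (ENSMUSG00000026042) lie close together on chromosome 1, at 45311538 to 45349706 on the plus strand and at 45374321 to 45503282 on the minus strand. Col5a1 (ENSMUSG00000026837) lies on chromosome 2 at 27886425 to 28039514, plus strand. Col5a3 (ENSMUSG00000004098) and Col12a1 (ENSMUSG00000032332) lie on the minus strand of chromosome 9, at 20770050 to 20815067 and at 79598991 to 79718831. Col14a1 (ENSMUSG00000022371) lies on chromosome 15 at 55307750 to 55520803, plus strand. Exons of Col5a1 overlap by 99 and 113 bases with 2 noncoding genes on the other strand, which had 51 and 0 counts over the 6 libraries against 13599 for Col5a1. Exons of Col3a1 share 141 bases with a miRNA gene that was not in the table.

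Total counts ran from 21160690 to 26339251 in KO libraries and from 21411113 to 23100862 in WT libraries. Counts of a collagen gene in a library ran from 388 (Col5a3) to 28035 (Col3a1). Levels are CPM (counts scaled to a common library total) after TMM, which corrects for library composition, and p-values are from edgeR's quasi-likelihood test, adjusted over all 17083 genes by Benjamini-Hochberg at 0.05. The labels number the samples and say no more about how they relate. Each p-value therefore weighs the difference between genotypes only against the spread of these particular samples, which may be technical. Ephb2, the targeted gene, stood at 6.01, 8.87 and 6.95 CPM in KO replicates 1 to 3, against 9.46, 8.28 and 12.4 CPM in WT replicates 1 to 3. The genotypes overlapped and the difference did not pass (log2 fold change -0.46, SE 0.21, edgeR adjusted p = 0.850), in RNA that also holds the cells without Cre.

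None of the 9 collagen genes differed between KO and WT liver beyond the spread between samples. Together they averaged 2793 ± 424 CPM in KO and 2503 ± 593 CPM in WT liver (SD, n = 3 each), or 0.288 ± 0.052% of all counts in KO and 0.245 ± 0.072% in WT. edgeR called 0 of the 9, where it called 0% of all genes, and 0 of the 9 reached an unadjusted p under 0.05, which 5.19% of all genes did. Without WT replicate 2, 2 of the 9 did (Col1a2, edgeR adjusted p = 0.457, and Col3a1, edgeR adjusted p = 0.464), where 1858 of 17411 genes did. In none of the 9 did the CPM of the genotypes separate, which they did in 11.1% of all genes. The log2 fold change was above 0 in 7 of the 9, with a median of 0.13, beside 49% of all genes and a median over all genes of -0.0048. Without WT replicate 1, 4 of the 9 lay above 0 and the median was -0.00051. Without KO replicate 3 the median was 0.062 and without WT replicate 2 it was 0.27.

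**Figure D1:**
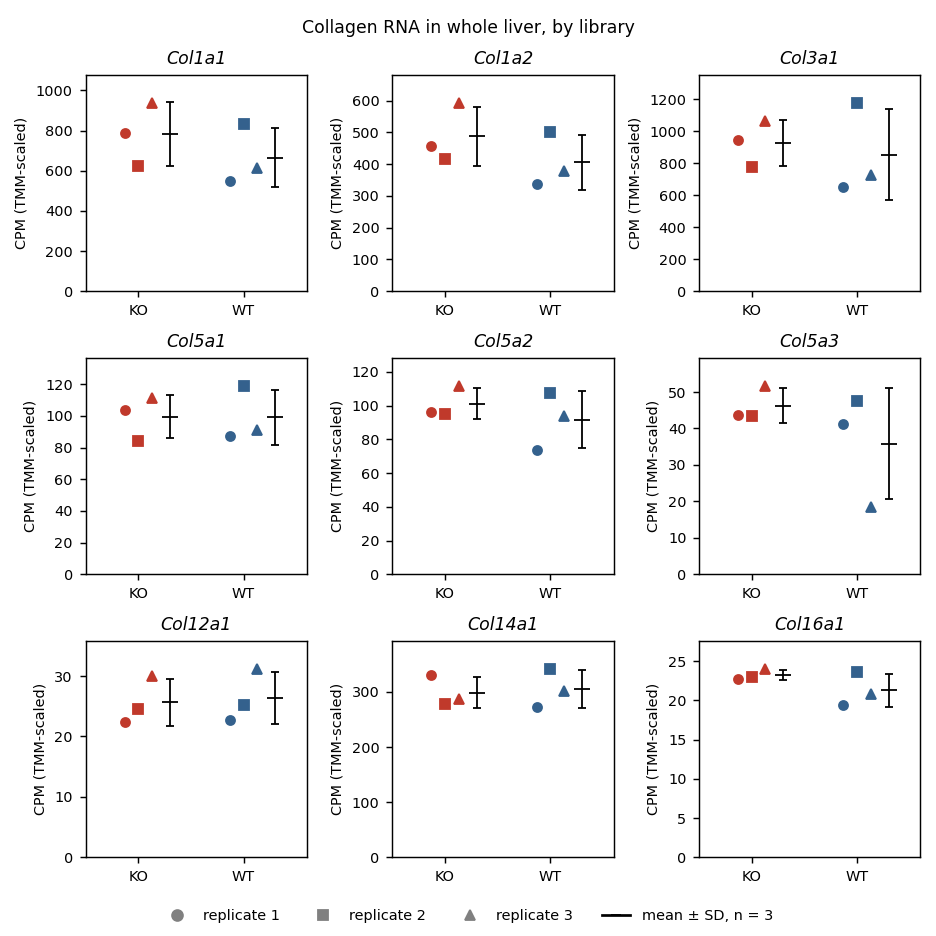
Level of each of the 9 collagen genes in CPM (TMM-scaled, y axis from 0), with KO libraries left of WT libraries. Points are libraries, their shape gives the replicate number, and the bar is the mean ± SD of 3. KO and WT points overlap in every panel, and in the Col5a3 panel WT replicate 3 lies apart at 18.6 CPM.

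Type I collagen, the main fibre of scar, was the base of the set. Col1a1 stood at 786, 622 and 939 CPM in KO replicates 1 to 3 and at 549, 831 and 615 CPM in WT replicates 1 to 3. KO replicate 3 was highest and WT replicate 1 lowest, and WT replicate 2 lay above the other KO libraries. The mean was 782 ± 159 CPM in KO and 665 ± 148 CPM in WT liver (SD, n = 3 each), a log2 fold change of 0.23 (SE 0.21, 95% interval -0.24 to 0.71, edgeR adjusted p = 0.858). On the linear scale that interval runs from 0.845-fold to 1.64-fold. Col1a2 stood at 456, 416 and 593 CPM in KO and at 336, 502 and 379 CPM in WT replicates 1 to 3. Its libraries were high and low in the same order as for Col1a1, and the genotypes overlapped (log2 fold change 0.27, SE 0.19, 95% interval -0.18 to 0.71, edgeR adjusted p = 0.850).

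Type III collagen, the thinner reticular fibre that forms with type I, varied 1.80-fold across the 6 libraries, the most of these 3 abundant chains. Col3a1 stood at 944, 775 and 1063 CPM in KO replicates 1 to 3 and at 653, 1178 and 725 CPM in WT replicates 1 to 3. Both the highest and the lowest library were WT. The coefficient of variation was 15.6% in KO and 33.4% in WT liver. The log2 fold change was 0.12 (SE 0.24, 95% interval -0.43 to 0.67, edgeR adjusted p = 0.921), and it was -0.04 without WT replicate 1 and 0.43 without WT replicate 2.

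For each chain of type V collagen, which starts fibrils, the levels overlapped between the genotypes. Col5a1 stood at 104, 84.3 and 111 CPM in KO replicates 1 to 3 and at 87.3, 119 and 91.3 CPM in WT replicates 1 to 3, with nearly equal means of 99.7 ± 13.8 and 99.2 ± 17.3 CPM (KO and WT, SD, n = 3 each). Its log2 fold change was 0.01 (SE 0.15, 95% interval -0.34 to 0.35). Col5a2 stood at 96.3, 95.2 and 112 CPM in KO and at 73.8, 107 and 93.7 CPM in WT replicates 1 to 3, with WT replicate 1 lowest (log2 fold change 0.14, SE 0.14, edgeR adjusted p = 0.872).

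Col5a3, the alpha 3 chain of type V, was even across 5 libraries and low in 1. It stood at 43.8, 43.3 and 51.7 CPM in KO replicates 1 to 3 and at 41.2, 47.6 and 18.6 CPM in WT replicates 1 to 3. WT replicate 3 was the low one, on 388 counts. The log2 fold change of 0.37 (SE 0.30, 95% interval -0.31 to 1.05, edgeR adjusted p = 0.858) went to 0.057 without that library. In the same library the other type V chains stood within the range of the rest.

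The fibril-associated genes differed less between libraries. Col14a1, the most abundant of them, stood at 332, 279 and 286 CPM in KO replicates 1 to 3 and at 273, 342 and 303 CPM in WT replicates 1 to 3 (log2 fold change -0.03, SE 0.13, 95% interval -0.33 to 0.26). Col16a1 stood at 22.7, 22.9 and 24.0 CPM in KO and at 19.4, 23.6 and 20.9 CPM in WT replicates 1 to 3, with a coefficient of variation of 2.97% in KO and 10.0% in WT. Its counts of 522, 605 and 539 in KO libraries are too few to resolve a spread that small. Its log2 fold change was 0.13 (SE 0.10, 95% interval -0.11 to 0.36, edgeR adjusted p = 0.858). Col12a1 stood at 22.4, 24.6 and 30.0 CPM in KO and at 22.7, 25.2 and 31.2 CPM in WT replicates 1 to 3, with the highest library in WT and the lowest in KO (log2 fold change -0.04, SE 0.15, 95% interval -0.39 to 0.31). Scaled by library size alone, Col12a1 and Col14a1 lay above 0 instead, at 0.046 and 0.043.

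**Figure D2:**
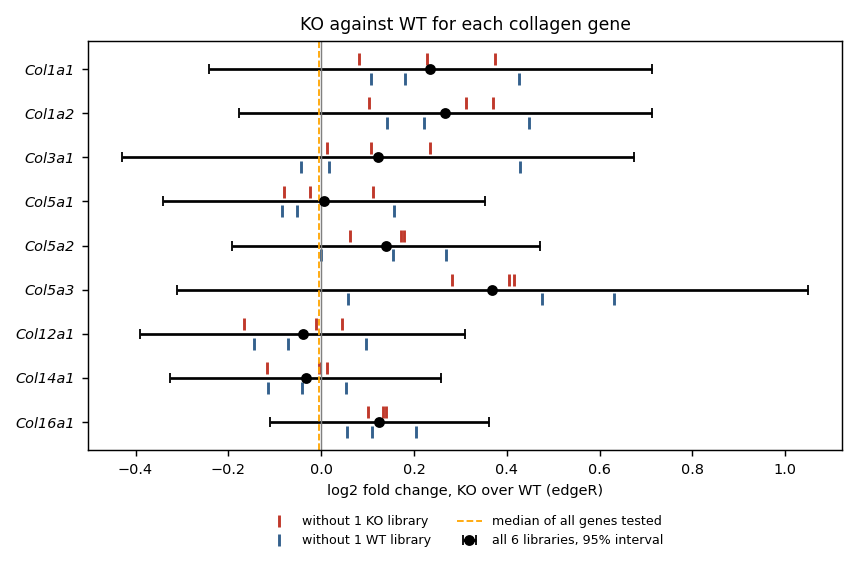
Log2 fold change of KO over WT for each collagen gene from edgeR (x axis). Black points with bars are the fit on all 6 libraries with its 95% interval, coloured ticks the fit with 1 library left out, and the dashed line the median of all genes tested, -0.0048. Every interval includes 0, and the Col5a3 tick nearest 0 is the fit without WT replicate 3, at 0.057.

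Most of the collagen genes were high in the same libraries, which came from both genotypes, although their full orders differed. In KO replicates 1 and 3 and in WT replicate 2, 8 of the 9 genes stood above their own mean over the 6 libraries. In KO replicate 2 and WT replicate 3, 2 of the 9 did, and in WT replicate 1, 1 did. Summed over the 9 genes the level was 2807, 2362 and 3210 CPM in KO replicates 1 to 3 and 2055, 3175 and 2277 CPM in WT replicates 1 to 3. The sums overlapped (exact two-sided permutation test on the summed CPM, p = 0.5, where 3 against 3 libraries allow no p below 0.1). The 3 libraries with the lowest collagen sum were those with the highest sum of 9 acute phase genes, which hepatocytes secrete under inflammation, at 6131, 19598 and 5305 CPM in KO and 11918, 5246 and 15392 CPM in WT replicates 1 to 3. Their part in the collagen levels was not tested.

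Portal fibroblasts are collagen-making cells around bile ducts. Their 11 markers, of which elastin (Eln) was the most abundant, summed to 268, 239 and 302 CPM in KO replicates 1 to 3 and to 166, 273 and 162 CPM in WT replicates 1 to 3, nearly in the order of the collagen sum. Without Eln they summed to 147, 158 and 185 CPM in KO and 111, 142 and 115 CPM in WT replicates 1 to 3. All KO libraries then lay above all WT libraries, beside 11.1% of all genes without overlap. With Eln the genotypes overlapped. The 12 stellate cell markers summed to 868, 807 and 789 CPM in KO and 830, 977 and 951 CPM in WT replicates 1 to 3, with KO replicate 3 lowest. Without Reln, the most abundant of them, they summed to 573, 579 and 572 CPM in KO and 536, 638 and 662 CPM in WT replicates 1 to 3, with WT replicate 1 lowest. Within that list Pdgfrb, whose promoter drives the Cre, stood at 68.0, 68.0 and 84.5 CPM in KO and 55.4, 95.3 and 49.6 CPM in WT replicates 1 to 3. KO replicate 3 and WT replicate 2 were its highest, as in the collagen sum. Reln was instead lowest in KO replicate 3, at 217 CPM. Of the 12 stellate cell markers, 4 had a log2 fold change above 0, Pdgfrb among them, and 8 lay below. The sums without 1 gene were added after the data were seen. The 9 myofibroblast markers summed to 78.0 to 86.5 CPM in KO and 82.3 to 85.6 CPM in WT libraries, a narrower range than that of the collagens. No marker on any of these lists was at 0 in all libraries, and their part in the collagen levels was not tested.

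**Figure D3:**
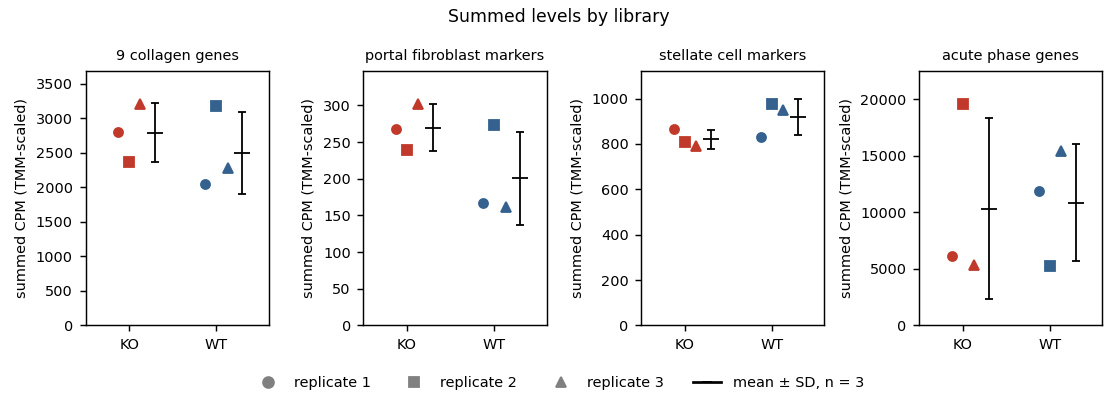
Summed level in CPM (TMM-scaled, y axes from 0) of the 9 collagen genes, 11 portal fibroblast markers, 12 stellate cell markers and 9 acute phase genes, with KO left of WT. Points are libraries by replicate number and bars the mean ± SD of 3. The collagen and portal fibroblast panels have KO replicate 3 and WT replicate 2 on top, and the acute phase panel has both near the bottom, at 5305 and 5246 CPM.

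The other marker lists were compared by their summed CPM. Cholangiocyte markers (9 genes) summed to 1261 to 1613 CPM in KO and 915 to 1234 CPM in WT libraries. Mesothelial markers (7 genes) summed to 35.2 to 43.9 CPM in KO and 25.2 to 32.8 CPM in WT libraries. Both sums were without overlap, beside 11.1% of all genes without overlap. The lists are not independent, since both hold Krt19, the most abundant of the mesothelial markers. Spp1, the largest part of the cholangiocyte sum, overlapped, at 803 to 1166 CPM in KO and 613 to 834 CPM in WT libraries. Krt19 and some other cholangiocyte markers did not overlap. Kupffer cell markers (6 genes) ran from 184 to 390 CPM in KO and 308 to 825 CPM in WT, and sinusoidal endothelial markers (6 genes) from 519 to 683 CPM in KO and 594 to 898 CPM in WT. Neutrophil markers (6 genes) ran from 12.3 to 58.1 CPM in KO and 10.8 to 89.9 CPM in WT. Hepatocyte markers (9 genes, Alb among them) held 46076 to 59624 CPM in KO and 53240 to 58097 CPM in WT libraries, the most of any list. Whether any of these moved with the collagens was not tested.

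The chains of type I kept a steadier proportion than their levels, while other ratios varied up to 2.53-fold (Col5a3 per Col5a1). The count of Col1a2 per count of Col1a1 was 0.580, 0.669 and 0.632 in KO replicates 1 to 3 and 0.613, 0.604 and 0.617 in WT replicates 1 to 3. All 6 lay close together, while the level of Col1a1 varied 1.71-fold. The genotypes overlapped, with means of 0.627 ± 0.045 in KO and 0.611 ± 0.0065 in WT (SD, n = 3 each). Per kb of the longest annotated transcript the ratio was 0.696 ± 0.049 in KO and 0.678 ± 0.0072 in WT liver. Per kb of all annotated exons it was 0.331 ± 0.024 in KO and 0.323 ± 0.0034 in WT, since retained-intron transcripts lengthen Col1a2 to 12426 bases against 5348 in its longest transcript.

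Col3a1 per Col1a1, the balance of type III and type I, was 1.2004, 1.25 and 1.13 in KO replicates 1 to 3 and 1.19, 1.42 and 1.18 in WT replicates 1 to 3. WT replicate 2 was highest, and the others lay close together in both genotypes. The difference in log2 ratio was -0.08, against a pooled SD of 0.12.

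Of the 8 ratios formed, that of Col5a1 to Col1a1 alone did not overlap between the genotypes. Among all genes tested, the CPM of 11.1% did not overlap. Col5a1 per Col1a1 was 0.132, 0.136 and 0.118 in KO replicates 1 to 3 and 0.159, 0.143 and 0.148 in WT replicates 1 to 3. All KO libraries held fewer Col5a1 counts per Col1a1 count than any WT library. The difference in log2 ratio was -0.23, against a pooled SD of 0.091, and lay between -0.27 and -0.17 with any 1 library left out. The exact permutation p (two-sided) was 0.1, the smallest that 3 against 3 libraries allow, and 0.6 after Benjamini-Hochberg adjustment over the 8 ratios.

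The ratios of the other type V chains overlapped. Col5a2 per Col5a1 was 1.02 ± 0.101 in KO and 0.925 ± 0.093 in WT liver (SD, n = 3 each). Col5a3 per Col5a1 was 0.423, 0.514 and 0.465 in KO replicates 1 to 3 and 0.472, 0.400 and 0.203 in WT replicates 1 to 3. WT replicate 3 was low here too, and without it the difference in log2 ratio was 0.10, against 0.47 with it. Among the fibril-associated genes, Col14a1 per Col1a1 was 0.392 ± 0.076 in KO and 0.467 ± 0.048 in WT, Col12a1 per Col1a1 0.033 ± 0.0057 and 0.041 ± 0.010, and Col16a1 per Col1a1 0.030 ± 0.0058 and 0.033 ± 0.0037 (KO and WT, SD, n = 3 each). The exact permutation p of these 7 ratios ran from 0.3 to 0.7, and adjusted from 0.6 to 0.7.

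**Figure D4:**
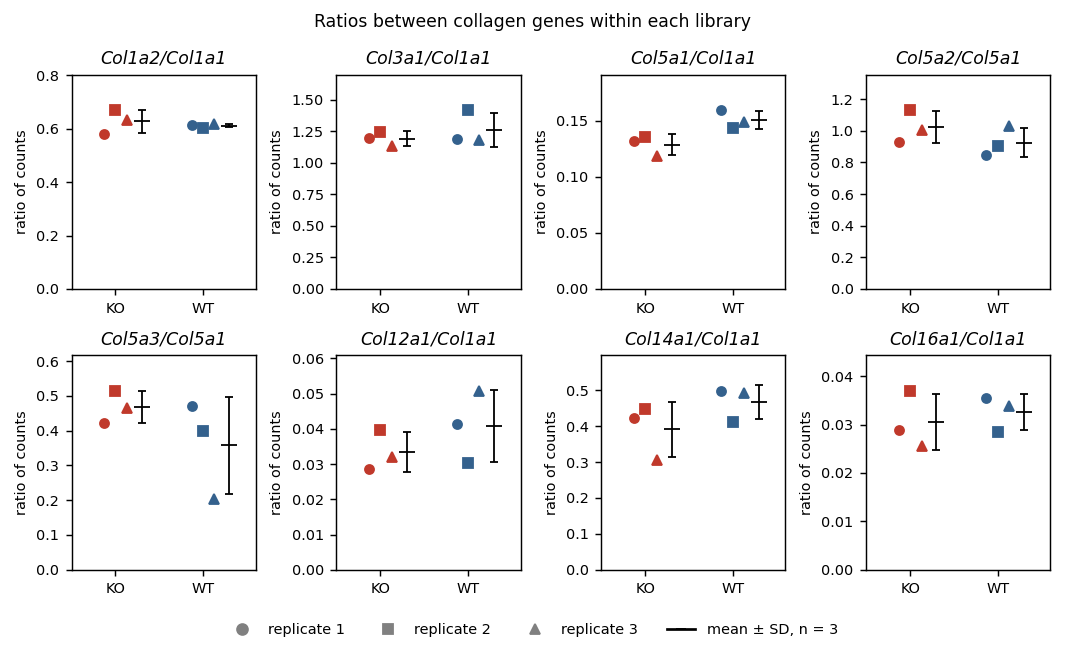
Ratio of counts between pairs of collagen genes within each library (y axes from 0), with KO left of WT. Points are libraries by replicate number and bars the mean ± SD of 3. Col1a2/Col1a1 is flat at 0.580 to 0.669, Col5a1/Col1a1 has all KO points below all WT points, and Col5a3/Col5a1 has WT replicate 3 apart at 0.203.

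Levels of different genes were compared per kb of length, since longer transcripts give more counts. Per kb of all annotated exons Col1a1 was highest, with 119 ± 24.2 CPM per kb in KO and 101 ± 22.5 in WT liver, followed by Col3a1 with 94.5 ± 14.7 in KO and 86.8 ± 29.0 in WT (SD, n = 3 each). Their ranges over the 6 libraries overlapped, although Col1a1 was above Col3a1 within each of the 6. Col14a1 (42.6 ± 4.06 in KO and 43.6 ± 4.92 in WT) and Col1a2 (39.3 ± 7.48 and 32.7 ± 6.92) came next and overlapped each other but not Col3a1. Col5a1 (11.7 ± 1.62 and 11.7 ± 2.04) and Col5a2 (10.5 ± 0.961 and 9.56 ± 1.77) overlapped each other, and Col5a3 (6.80 ± 0.691 and 5.26 ± 2.24) overlapped Col16a1 (3.44 ± 0.102 and 3.15 ± 0.316) only through WT replicate 3. Col12a1 was lowest, with 1.68 ± 0.254 CPM per kb in KO and 1.73 ± 0.286 in WT liver.

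The top of this order rests on the length used. Per kb of the longest annotated transcript Col3a1 led, with 167 ± 25.97 CPM per kb in KO and 153 ± 51.1 in WT, above Col1a1 (132 ± 26.7 and 112 ± 24.9) within each of the 6 libraries, with overlapping ranges. Col1a2 then came next (91.4 ± 17.4 in KO and 75.9 ± 16.1 in WT), ahead of Col14a1 (46.3 ± 4.41 and 47.4 ± 5.34), and Col5a2 ranked above Col5a1. The last 3 places, held by Col5a3, Col16a1 and Col12a1, were the same by either length.

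Col1a1, Col1a2 and Col3a1 together made up most of the summed level per kb in every library. By all annotated exons Col1a1 took 35.9 ± 1.91% in KO and 34.3 ± 0.422% in WT liver, and Col3a1 28.6 ± 0.224% in KO and 28.9 ± 2.81% in WT (SD, n = 3 each). Col14a1 took 10.8 to 14.3% in KO and 13.1 to 16.01% in WT libraries, the largest part outside types I and III, and Col5a1 3.56 ± 0.097% in KO and 3.98 ± 0.224% in WT. Col12a1, also a surface FACIT, took 0.442 to 0.760% across the 6 libraries.

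**Figure D5:**
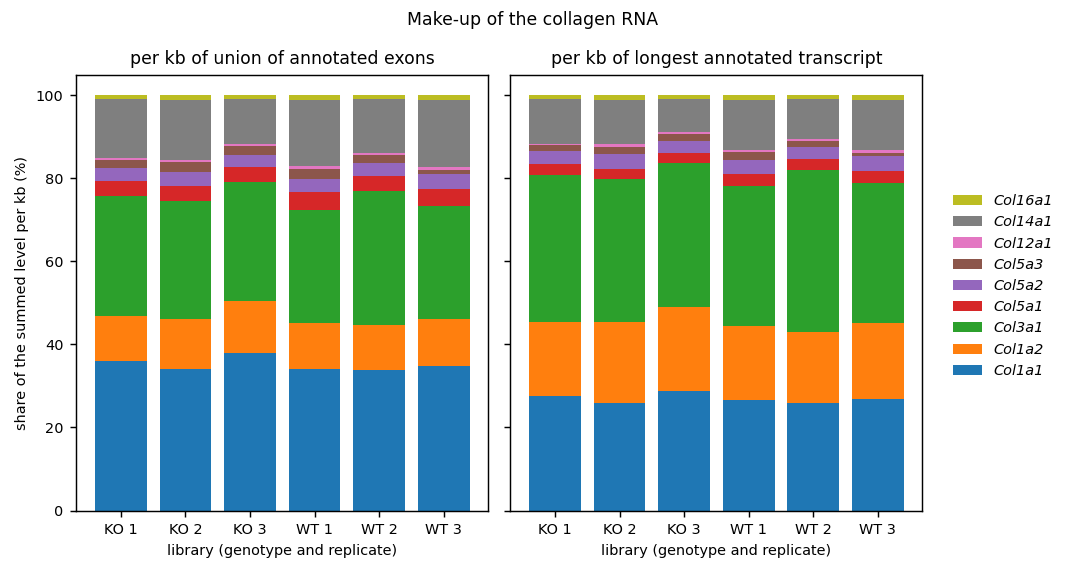
Share of each collagen gene in the summed level per kb of the 9 genes (y axis, percent), 1 bar per library with KO left of WT. The left panel divides by all annotated exons and the right panel by the longest annotated transcript. The bars are alike across libraries, and the share of Col1a2 grows from 10.8 to 12.6% in the left panel to 17.3 to 20.2% in the right one.

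Likeness to Col1a1 over the 6 libraries was measured as the root mean square difference between log2 levels, each centred on its own mean. Among 14972 genes with a mean of at least 1 CPM, Col1a2 was the 5th closest, at 0.063, where the median gene stood at 0.322. Col3a1 came 51st (0.103), Col5a1 161st (0.136), Col5a2 198th (0.142) and Col16a1 785th (0.191). Col14a1 (0.236), Col12a1 (0.290) and Col5a3 (0.422) were further away, Col5a3 beyond the median gene. The 5 closest genes outside the collagens were 1500015A07Rik (0.050), Spry1 (0.055), an intracellular inhibitor of receptor tyrosine kinase signalling, Ptprcap (0.055), a partner of the leukocyte phosphatase CD45, Ccdc30 (0.057) and A130048G24Rik (0.064). These distances describe 6 libraries and were not tested. Spry1 stood at 21.96, 18.8 and 25.5 CPM in KO replicates 1 to 3 and 16.3, 24.1 and 17.1 CPM in WT replicates 1 to 3, and the other 4 averaged 1.18 to 3.03 CPM.

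Of the other fibrillar and fibril-associated collagens, several of them genes of cartilage, most were low in liver. Of 12 on the list 11 were in the table, 4 passed the filter, 7 reached a floor of 3 counts in at least 4 libraries, and 2 (Col11a1 and Col19a1) had no count in any library. The floor is 0.114 to 0.149 CPM. Col27a1, a fibrillar collagen with a short helix, was the most abundant. KO replicates 1 to 3 were at 36.9, 30.3 and 43.7 CPM, and WT replicates 1 to 3 at 25.2, 29.1 and 19.8 CPM. It did not overlap, beside 11.1% of all genes without overlap (log2 fold change 0.58, SE 0.17, edgeR adjusted p = 0.850). Col9a3, a chain of the cartilage FACIT type IX, was at 1.90 ± 0.42 CPM in KO and 1.29 ± 0.46 CPM in WT (SD, n = 3 each). edgeR called 0 of the 4 tested, with 3 above 0.

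Genes that fold, modify and export procollagen in the secretory pathway had a median log2 fold change of -0.06, with 9 of 22 above 0. Their summed level was 3137 to 3231 CPM in KO and 3377 to 3501 CPM in WT libraries. It did not overlap between the genotypes, beside 11.1% of all genes without overlap. P4hb, the beta subunit of prolyl 4-hydroxylase and also a disulfide isomerase, was its largest part and did not overlap either. P4hb was at 1497 ± 46.6 CPM in KO and 1685 ± 84.7 CPM in WT (SD, n = 3 each). P3h3, a member of the prolyl 3-hydroxylase family, was at 17.6 ± 1.02 CPM in KO and 15.2 ± 0.874 CPM in WT, and Plod2, the lysyl hydroxylase of the chain ends, at 14.8 ± 2.41 and 12.3 ± 0.860 CPM (KO and WT, SD, n = 3 each). Of the proteinases and enhancers that cut off the propeptides 6 of 8 were tested, with 2 above 0 and a median of -0.17. Pcolce2, an enhancer of this cut, was at 1.49 ± 0.327 CPM in KO and 2.25 ± 0.960 CPM in WT, and Adamts3, which removes N-propeptides, at 1.84 ± 0.319 and 2.34 ± 0.339 CPM (KO and WT, SD, n = 3 each). edgeR called 0 genes of either list.

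Genes that assemble and cross-link fibrils had 12 of 18 tested above 0, beside 49% of all genes, with a median log2 fold change of 0.24. Dpt, dermatopontin, which binds decorin and speeds fibril formation, stood at 46.3, 61.1 and 65.7 CPM in KO replicates 1 to 3 and 39.4, 45.4 and 34.5 CPM in WT replicates 1 to 3, with every KO library above every WT library (log2 fold change 0.54, SE 0.15, edgeR adjusted p = 0.850). It is on the list of portal fibroblast markers too. Podn, podocan, a small leucine-rich proteoglycan, was at 16.4 ± 1.95 CPM in KO and 12.5 ± 0.787 CPM in WT (SD, n = 3 each). edgeR called 0 of the 18.

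Among genes that bind and take up fibrillar collagen the smallest p was that of Mrc2, the endocytic receptor that carries collagen into lysosomes. It stood at 63.1, 62.1 and 69.3 CPM in KO replicates 1 to 3 and 46.6, 58.3 and 46.2 CPM in WT replicates 1 to 3, without overlap (log2 fold change 0.36, SE 0.11, edgeR adjusted p = 0.850). Adgrg1, an adhesion receptor that binds type III collagen, was at 37.0 ± 3.31 CPM in KO and 27.8 ± 6.59 CPM in WT (SD, n = 3 each). Of the receptors 6 of 10 tested lay above 0 (median 0.09). In the breakdown list 6 of 9 did (median 0.24), and the metalloproteinase inhibitors Timp3 (165 ± 25.9 CPM in KO and 111 ± 28.9 CPM in WT) and Timp2 (164 ± 23.3 and 126 ± 14.2 CPM, SD, n = 3 each) had its smallest p. The breakdown list summed to 509 to 631 CPM in KO and 396 to 493 CPM in WT libraries. It did not overlap, beside 11.1% of all genes without overlap. That sum holds the inhibitors along with the enzymes, and Timp2 and Timp3 were its largest parts. Of its genes Timp3 alone did not overlap, at 149 to 195 CPM in KO and 86.1 to 143 CPM in WT. No enzyme of the list separated the genotypes, and the enzymes were not summed alone. edgeR called 0 genes of either list.

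Among regulators of collagen genes 13 of 20 tested lay above 0, with a median of 0.06. Cebpb, a transcription factor of the acute phase and of collagen promoters, stood at 133, 120 and 117 CPM in KO replicates 1 to 3 and 196, 145 and 268 CPM in WT replicates 1 to 3, lower in all KO libraries (log2 fold change -0.72, SE 0.20, edgeR adjusted p = 0.850). Ciita, the MHC class II activator that represses Col1a2 in cultured fibroblasts, was at 20.6 to 36.2 CPM in KO and 19.0 to 20.5 CPM in WT libraries. edgeR called 0 of the 20. Each gene named from these 7 lists was among the 2 with the smallest p of its list, apart from P4hb, Col11a1 and Col19a1. Picking by p favours genes without overlap, so that trait in Col27a1, Dpt, Mrc2 and Cebpb adds no evidence. Of all genes 11.1% had no overlap.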

How the data were processed

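The table deposited by the authors holds raw counts, whole numbers for each Ensembl gene in each library, not normalized. Per the submitters' processing notes, the tools were STAR 2.7.6a, featureCounts 1.6.3 and DESeq2 1.30.0. Those notes name mm10 and GRCm38 as builds, without roles. The libraries were poly(A)-enriched with a directional kit, per the labels' protocols. For the annotation and the strand setting: not given in the sources used here. GENCODE M21 on GRCm38 named 52135 of the 55416 gene IDs and gave exon lengths.

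Counts were tested with edgeR 4.0.16 in R 4.3.3 (TMM, filterByExpr with a minimum count of 10 and a minimum total of 15, genotype as the sole term) and adjusted over all 17083 genes. The SE is the log2 fold change divided by the root of F. Ratios and sums were tested by exact permutation over the 6 libraries. Log2 levels used a prior count of 2. The fit was checked on simulated counts. All pairs of libraries differed by more than sampling noise (chi-square per degree of freedom at least 10.4).

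The collagen genes and all lists (7 of the pathway, 10 of markers) were chosen with earlier results of these data known, so no p is adjusted over a list alone. Named genes were Ephb2, the 9 collagens, the 2 with the smallest p per pathway list at a mean of at least 1 CPM, and the 5 most like Col1a1. P4hb, Eln, Reln, Pdgfrb, Alb, Spp1, Krt19, Col11a1 and Col19a1 were added with their values in view. The alternatives tried were upper-quartile, library-size or DESeq2 size-factor scaling, no filter, a filter of 1 CPM in 3 libraries, DESeq2 1.42.0, limma-voom (limma 3.58.1), the replicate number as a block, each library left out, summed counts for ratios and another length.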

Additional observations from a re-analysis of the deposited data

How the results depend on the processing

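No collagen gene and no gene of the 7 pathway lists was called under any alternative. Over all genes edgeR called 0, against 3 with no count filter, 7 by DESeq2, and 0 to 2 with 1 library left out (2 without WT replicate 3); limma-voom called 0. Genes at an unadjusted p under 0.05 numbered 886, between 452 without KO replicate 3 and 1858 without WT replicate 2, where 2 of the 9 collagen genes were among them, against 0 under all other settings.

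Col1a1, Col1a2, Col5a3 and Col16a1 kept a positive log2 fold change under every alternative, at 0.082 to 0.43, 0.10 to 0.45, 0.057 to 0.63 and 0.057 to 0.21 in that order with 1 library left out. Left-out libraries moved Col3a1 between -0.043 and 0.43, Col5a1 between -0.085 and 0.16, Col5a2 between -0.00051 and 0.27, Col12a1 between -0.17 and 0.10, and Col14a1 between -0.12 and 0.053. Library size alone turned Col12a1 to 0.046 and Col14a1 to 0.043, and Col5a1 was -0.0012 with no filter and -0.0033 by DESeq2. The difference in log2 ratio ran from -0.013 to 0.090 for Col1a2/Col1a1, from -0.12 to 0.0097 for Col3a1/Col1a1 and from -0.25 to 0.011 for Col16a1/Col1a1; the cause was not tested. The log2 difference of the summed CPM was 0.17, and 0.036 without WT replicate 1 to 0.36 without WT replicate 2.

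Deviations of same-numbered libraries from their genotype means correlated at -0.026, -0.44 and -0.31, so no pairing by replicate number was seen. With 3 libraries per genotype these deviations depend on one another, so they cannot settle how the samples relate. With the replicate block edgeR called 0 genes and the collagen median was 0.15. Groups of 3 limit every exact test to p of at least 0.1.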
